A study of Rattus norvegicus with 32 samples.

Results

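Bone marrow macrophages (BMDM), grown in culture from rat marrow, were set against whole spleen of wild-type rats to see which transcripts the cultured cell carried that the organ did not, and the reverse. Members were all 4 arrays labelled BMDM (2) or WT spleen (2), of 32 in the series, and all 9082 genes tested on them, of 14557 that the array annotation named. The marrow donors were adult male DA rats of genotype Csf1r +/+, and the marrow cells had been held for a week in recombinant human CSF1. The spleens came from adult female DA/SD rats, also Csf1r +/+, were not perfused and were snap frozen whole. Sex, strain, culture and tissue therefore changed together between the groups and cannot be told apart. None of the sex-linked genes looked for was among the genes tested, so the sex labels could not be checked. The remaining spleens of the series, 2 HET (Csf1r +/-) and 2 KO (Csf1r -/-), from female DA/SD rats, and 24 arrays of brain regions and pituitary gland are used only for values set beside a result. HET 2 and KO 2 stood apart from the other spleens, with Cd3g, a T cell receptor subunit, at 12.24 and 12.16 on the log2 scale against 10.45 and 11.07 in WT spleen.

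CSF1 acts through its receptor CSF1R, a tyrosine kinase of monocytes and macrophages, and marrow progenitors cultured in CSF1 give an adherent, phagocytic and still dividing macrophage population. The spleen is a mixture. Its white pulp holds B and T cells arranged by stromal chemokines, its red pulp holds blood and macrophages that clear old erythrocytes and return the iron to the circulation, and distinct macrophages line the marginal zone between them. A transcript in whole spleen is therefore averaged over many cell types, and for bulk RNA, fewer cells of a type and less RNA per cell cannot be told apart.

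Values are log2 intensities, on which a difference of 1 is a 2-fold ratio. Differences are BMDM minus WT spleen, n is 2 arrays per group, and a gene is called when limma's adjusted p is below 0.05. Of the 9082 genes, 2356 were called higher in BMDM (25.9%) and 3307 lower (36.4%), so that 62.4% differed in 1 direction or the other. Differences of 4 or more, which is 16-fold on the linear scale, were found in 94 higher and 180 lower calls. The median difference over all tested genes was -0.20. Replicates lay close together, with a correlation across genes of 0.968 between the BMDM arrays and 0.981 between the spleens, against 0.588 to 0.618 across the groups. The spread between replicate arrays was 0.483 (SD of the log2 difference over genes) for BMDM and 0.329 for spleen. Longer genes were called lower more often, from 28.2% in the fifth with the shortest genomic span to 46.7% in the fifth with the longest, and called higher less often, from 32.5% to 20.3%. The part of gene length in the results was not tested.

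The 4 macrophage markers were checked first. Csf1r itself lay at 9.97 and 10.10 in BMDM and at 10.37 and 10.18 in WT spleen, and the difference of -0.24 (95% interval -0.71 to 0.22, adjusted p = 0.304 by limma) did not pass. Whole spleen thus carried Csf1r mRNA in the same range as a culture of macrophages. Adgre1, the F4/80 adhesion receptor, read 9.73 and 9.82 in BMDM against 7.72 and 7.33 in spleen. Itgam, the CD11b chain of complement receptor 3, read 9.45 and 9.78 against 5.86 and 5.82. Fcgr1a, the high-affinity IgG receptor, read 10.63 and 10.58 against 8.26 and 7.86. These 3 genes were higher in BMDM by 2.24 ± 0.21 (SE), 3.77 ± 0.20 and 2.54 ± 0.21, with adjusted p of 0.000308, 5.48e-05 and 0.000196 by limma.

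The other core genes of mononuclear phagocytes followed the markers with exceptions. Of 19 tested members of this list, 13 were higher in BMDM and 2 lower, 68.4% and 10.5% against 25.9% and 36.4% of all tested genes, with a median difference of 0.74. Cd14, the co-receptor for bacterial lipopolysaccharide, rose from 6.37 and 6.28 in spleen to 11.42 and 10.93 in BMDM. Lgals3, galectin-3, rose from 7.60 and 7.34 to 11.70 and 11.65. Cd68, a lysosomal sialomucin, was higher by 1.28 and Spi1, which encodes the macrophage transcription factor PU.1, by 0.95. Lyz2, lysozyme, was high in both sample types (11.79 and 11.88 in BMDM, 11.35 and 11.38 in spleen) and did not pass (adjusted p = 0.0632 by limma). The 2 lower genes were Mertk, a receptor for apoptotic cells, by 0.66, and Adgre4. The call of Mertk was lost when either spleen was left out. Adgre4, a relative of F4/80, lay at 9.10 and 8.54 in spleen and below intensity 20 (4.32 on the log2 scale) on both BMDM arrays.

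PU.1 binds DNA through a purine-rich core, and the upstream sequences of 3 called genes are shown because 8 of the 10 list members with an entry hold a form of it. Sequences are from RefSeq on the rat assembly GRCr8, cover the 250 bases before the annotated start of each gene, and carry in capitals each match to GAGGAA on either strand (TTCCTC on the other). GAGGAA contains the GGAA core that the whole ETS family shares. Adgre1 lies at chr9:2329190-2329439 (+ strand), Itgam at chr1:192089342-192089591 (+) and Cd68 at chr10:54882442-54882691 (- strand).
Adgre1: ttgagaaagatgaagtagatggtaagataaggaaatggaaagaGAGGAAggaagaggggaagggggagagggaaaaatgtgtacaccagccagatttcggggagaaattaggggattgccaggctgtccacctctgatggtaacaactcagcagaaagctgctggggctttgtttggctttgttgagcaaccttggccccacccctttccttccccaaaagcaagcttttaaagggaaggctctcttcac
Itgam: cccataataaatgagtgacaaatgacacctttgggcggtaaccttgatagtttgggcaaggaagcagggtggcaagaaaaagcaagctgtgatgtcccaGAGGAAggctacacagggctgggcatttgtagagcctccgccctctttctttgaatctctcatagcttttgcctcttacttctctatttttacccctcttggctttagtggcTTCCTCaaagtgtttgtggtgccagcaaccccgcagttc
Cd68: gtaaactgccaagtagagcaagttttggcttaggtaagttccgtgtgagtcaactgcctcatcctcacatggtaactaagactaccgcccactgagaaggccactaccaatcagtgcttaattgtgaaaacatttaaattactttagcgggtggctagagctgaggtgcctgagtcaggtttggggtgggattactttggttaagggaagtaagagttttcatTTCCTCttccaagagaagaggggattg
The match in Adgre1 begins 207 bases before the start, those in Itgam 151 and 39 bases before it, and that in Cd68 27 bases before it. Of the 10 tested phagocyte genes with an entry in the promoter table, 8 held the motif, namely these 3, Cd14, Cd9, Csf1r, Lyz2 and Adgre4, so that higher, lower and uncalled members were among them. The share over all 27457 promoters was 23.2%, and it was 23.0% for genes called higher and 24.1% for genes called lower. Of 8 B cell genes with an entry 5 held it as well. A match is a stretch of letters, and binding was not measured.

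**Figure D1:**
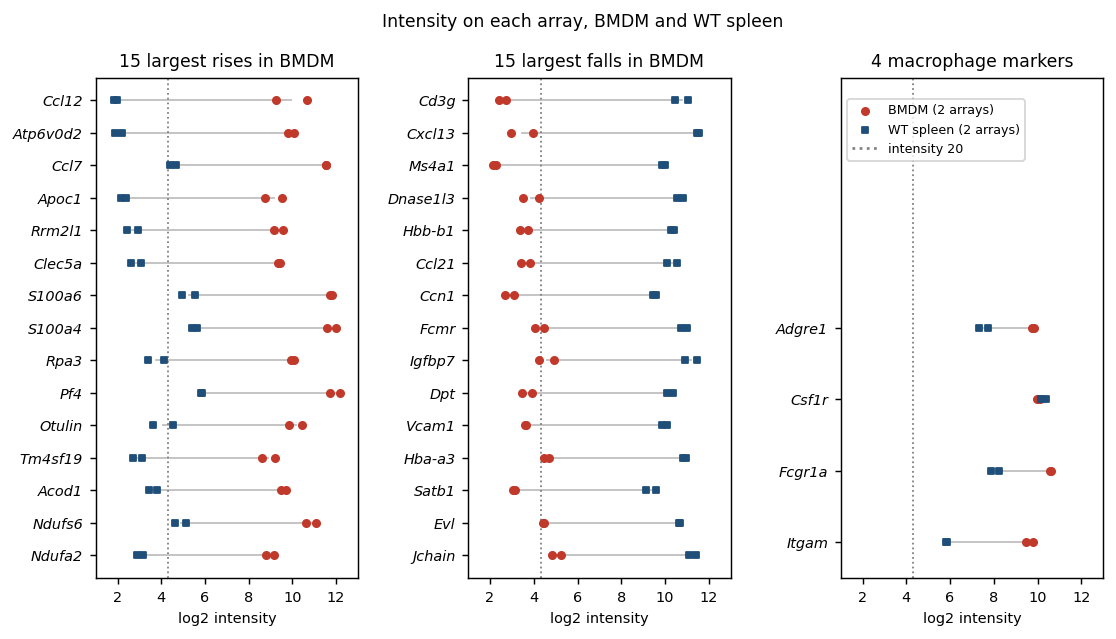
Log2 intensity (x axis) of each gene (rows) on the 2 BMDM arrays (red circles) and 2 WT spleen arrays (blue squares); the grey line joins the group means and the dotted line marks intensity 20. In the 15 largest rises and 15 largest falls the groups lie far apart, whereas Csf1r lies near 10 in both.

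The largest rises in BMDM included chemokines, membrane receptors and enzymes. They were taken from genes whose BMDM arrays both reached intensity 200, and 9 of the 15 were below 20 on both WT spleens, for which only a lower bound on the fold is given. Ccl12, a monocyte-attracting chemokine, read 10.65 and 9.26 in BMDM and 1.83 and 1.99 in spleen, at least 49.7-fold higher (adjusted p = 5.54e-05). Atp6v0d2, the d2 subunit of the proton pump of lysosomes and osteoclasts, read 9.82 and 10.07 against 1.88 and 2.18, at least 49.3-fold higher (adjusted p = 2.87e-05). Both were therefore strong in the culture and at the floor of the array in spleen, and they were at the floor on the 4 HET and KO spleens too. Apoc1, an apolipoprotein, was at least 28.4-fold higher and Clec5a, a myeloid lectin receptor, at least 33.5-fold higher. Acod1, which makes the antimicrobial metabolite itaconate, was at least 38.8-fold higher.

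In 5 of the 15 genes both groups could be read at 20 or more and the fold is a measured one. Ccl7, a second monocyte chemokine, rose from 4.39 and 4.69 in spleen to 11.55 and 11.52 in BMDM, a difference of 7.0 ± 0.20. Pf4, platelet factor 4, rose from 5.85 and 5.80 to 12.16 and 11.70, a difference of 6.11 ± 0.22. Pf4 is stored in platelets, and the part of platelets in its level was not tested. S100a6 and S100a4, small calcium-binding proteins, were higher by 6.5 ± 0.25 and 6.25 ± 0.23. Ndufs6, a subunit of respiratory complex I, was higher by 5.97 ± 0.26 (all 5 at adjusted p of 2.87e-05 to 3.2e-05 by limma). Otulin, which trims linear ubiquitin chains, was below 20 on 1 of the 2 spleens, at 3.63 and 4.54 against 9.86 and 10.42. Of the remaining genes, Rpa3 is the small subunit of the single-strand DNA-binding protein RPA, Ndufa2 is another complex I subunit, Tm4sf19 is a tetraspan membrane protein, and Rrm2l1 is named for its likeness to Rrm2, from which these probes may not tell it apart.

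Chemokines, the secreted proteins that direct leukocyte movement, went both ways. Of 25 tested, 13 were higher in BMDM and 10 lower (52.0% and 40.0%, against 25.9% and 36.4% of all tested genes). The lower share was thus near that of all genes. Besides Ccl12, Ccl7 and Pf4, the higher ones were the monocyte and neutrophil attractants Ccl9, Cxcl2, Ccl2, Ccl3, Cxcl1 and Ccl4, together with Ccl17, Ccl22, Ccl20 and Cxcl16. Ccl2 rose from 6.87 and 6.95 to 11.51 and 11.55, and Ccl3 from 6.90 and 6.72 to 11.36 and 10.84. These values separate the groups by more than 4, several times the spread between the replicates.

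The lower chemokines included the 3 that place lymphocytes in the white pulp. Cxcl13, which draws B cells into follicles, read 11.55 and 11.44 in spleen and 2.94 and 3.96 in BMDM, at least 144-fold lower in the culture. Ccl21 and Ccl19, which guide T cells, were at least 64.6-fold lower and lower by 3.53. Cxcl9, Cxcl10 and Cxcl11, the interferon-induced ligands of CXCR3, were lower, Cxcl11 by 4.11, as was Ccl5 by 3.93. Chemokine receptors moved mostly down, with 2 of 17 higher and 14 lower (11.8% and 82.4%, against 25.9% and 36.4% of all tested genes). The 2 higher were Ccr1, a receptor for Ccl3 and Ccl7, by 4.69 ± 0.20 (9.93 and 9.67 against 5.14 and 5.09), and Cxcr4, the receptor for Cxcl12, by 2.28. Cxcr5, the receptor for Cxcl13, was at least 20.6-fold lower, and Ccr7, the receptor for Ccl19 and Ccl21, was lower by 1.86. Ccr2, the receptor for Ccl2, did not pass (6.97 and 6.77 against 7.07 and 6.39).

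**Figure D2:**
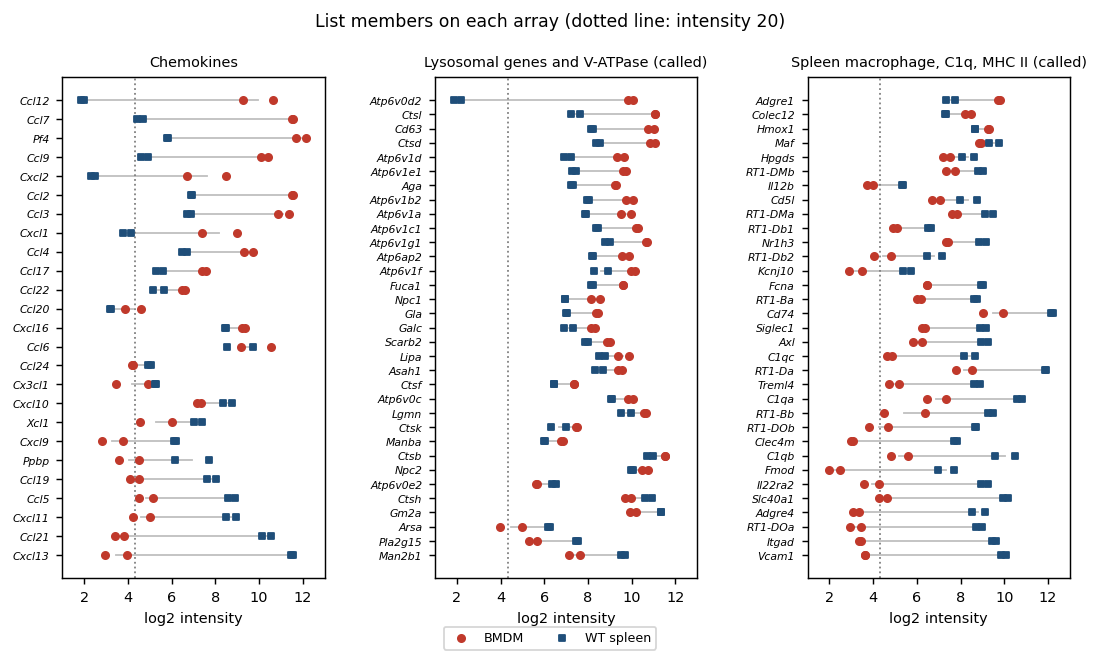
Log2 intensity (x axis) on each BMDM (red) and WT spleen (blue) array for all tested chemokines (left), the called lysosomal and V-ATPase genes (middle), and the called spleen macrophage, C1q and MHC class II genes (right), sorted by difference; the dotted line marks intensity 20. Chemokines run from Ccl12 at least 49.7-fold higher to Cxcl13 at least 144-fold lower in BMDM.

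The acidifying machinery of the lysosome was higher in BMDM. The vacuolar ATPase pumps protons into lysosomes, and 10 of its 13 tested genes were higher and 1 lower (76.9% and 7.69%), with a median difference of 1.80. Apart from Atp6v0d2, the 9 higher genes differed by 0.89 (Atp6v0c) to 2.42 (Atp6v1d). Atp6v1a, of the soluble V1 sector that splits ATP, lay at 9.51 and 9.96 in BMDM against 7.88 and 7.91 in spleen. The 1 lower gene was Atp6v0e2, by 0.79, and its call and that of Atp6v0c were lost without either spleen. Among 33 lysosomal enzymes and membrane proteins 17 were higher and 5 lower (51.5% and 15.2%), with a median of 0.58. Ctsl, cathepsin L, rose from 7.63 and 7.23 to 11.08 on both BMDM arrays. Cd63, a lysosomal tetraspanin, was higher by 2.67 and Ctsd, cathepsin D, by 2.50. Man2b1, a lysosomal mannosidase, and Arsa, arylsulfatase A, went the other way, lower by 2.20 and 1.76. Of 10 tested genes of osteoclasts and cell fusion, a list that shares Atp6v0d2 and Ctsk with those above, 6 were higher and 0 lower by limma (0 lower also at an unadjusted p under 0.05). Ocstamp, needed for osteoclast fusion in mouse, read 5.33 and 5.30 in BMDM and was below 20 in spleen.

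Factors of the MITF and TFE family, as well as USF and MYC proteins, bind the palindrome CACGTG, and the upstream 250 bases of Ctsd and Cd63 are shown because each holds it. Ctsd lies at chr1:206968822-206969071 (- strand) and Cd63 at chr7:1921894-1922143 (+ strand), in RefSeq on GRCr8, with the motif in capitals.
Ctsd: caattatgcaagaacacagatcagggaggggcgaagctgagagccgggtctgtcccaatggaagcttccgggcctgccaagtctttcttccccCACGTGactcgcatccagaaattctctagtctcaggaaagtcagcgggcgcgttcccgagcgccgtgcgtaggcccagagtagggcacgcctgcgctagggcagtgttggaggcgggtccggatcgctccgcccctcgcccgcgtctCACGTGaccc
Cd63: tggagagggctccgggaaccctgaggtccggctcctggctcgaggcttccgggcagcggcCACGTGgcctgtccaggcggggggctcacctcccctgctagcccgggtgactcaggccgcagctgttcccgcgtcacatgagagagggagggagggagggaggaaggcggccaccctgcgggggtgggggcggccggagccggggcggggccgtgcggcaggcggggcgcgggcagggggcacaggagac
The matches begin 157 and 10 bases before the start of Ctsd and 190 bases before that of Cd63. The motif was present in 6 of 26 lysosomal genes with an entry (23.1%), of which Ctsd, Cd63, Ctsf and Galc were called higher and Cln3 and Glb1 were not called. It was present in 1 of 9 V-ATPase genes, Atp6v0d1, which was not called. Over all 27457 promoters the share was 5.79%, and it was 8.65% for genes called higher and 6.61% for genes called lower.

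Of 28 scavenger and phagocytic receptors 14 were higher in BMDM and 8 lower. Trem2, a lipid-sensing receptor, rose from 5.19 and 5.0 in spleen to 10.31 and 10.10. Trem1, which is outside this list and amplifies inflammatory signals, rose from 5.28 and 4.37 to 10.27 and 9.97. Olr1, a receptor for oxidised lipoprotein, was at least 9.14-fold higher. Msr1, the class A scavenger receptor, was higher by 2.72, and the C-type lectins Clec12a, Clec4e and Clec4d by 4.08, 4.02 and 3.83. Members used to clear dead cells were called in both directions. Havcr2 and Itgav, which take part in binding dying cells, were higher by 1.72 and 0.66, and Stab1, Timd4 and Itgb3 were not called. Mfge8, which links dying cells to integrins, fell from 11.26 on both spleens to 5.18 and 5.34 in BMDM, a difference of -6.00 ± 0.19. Axl was lower by 3.06, Mertk by 0.66, and Stab2, a hyaluronan receptor of sinus endothelium, was at least 17.7-fold lower. Marco, a marginal zone receptor in mouse, was near the floor in both (3.75 and 4.39 against 3.76 and 3.48), and Cd36 did not pass (difference -0.02, 95% interval -0.51 to 0.47). Of 21 genes of Toll-like receptors and their signalling 8 were higher and 6 lower (38.1% and 28.6%, against 25.9% and 36.4% of all tested genes), and without BMDM 3 these were 8 and 9. Tlr2, which senses bacterial lipoproteins, was higher by 3.64.

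**Figure D3:**
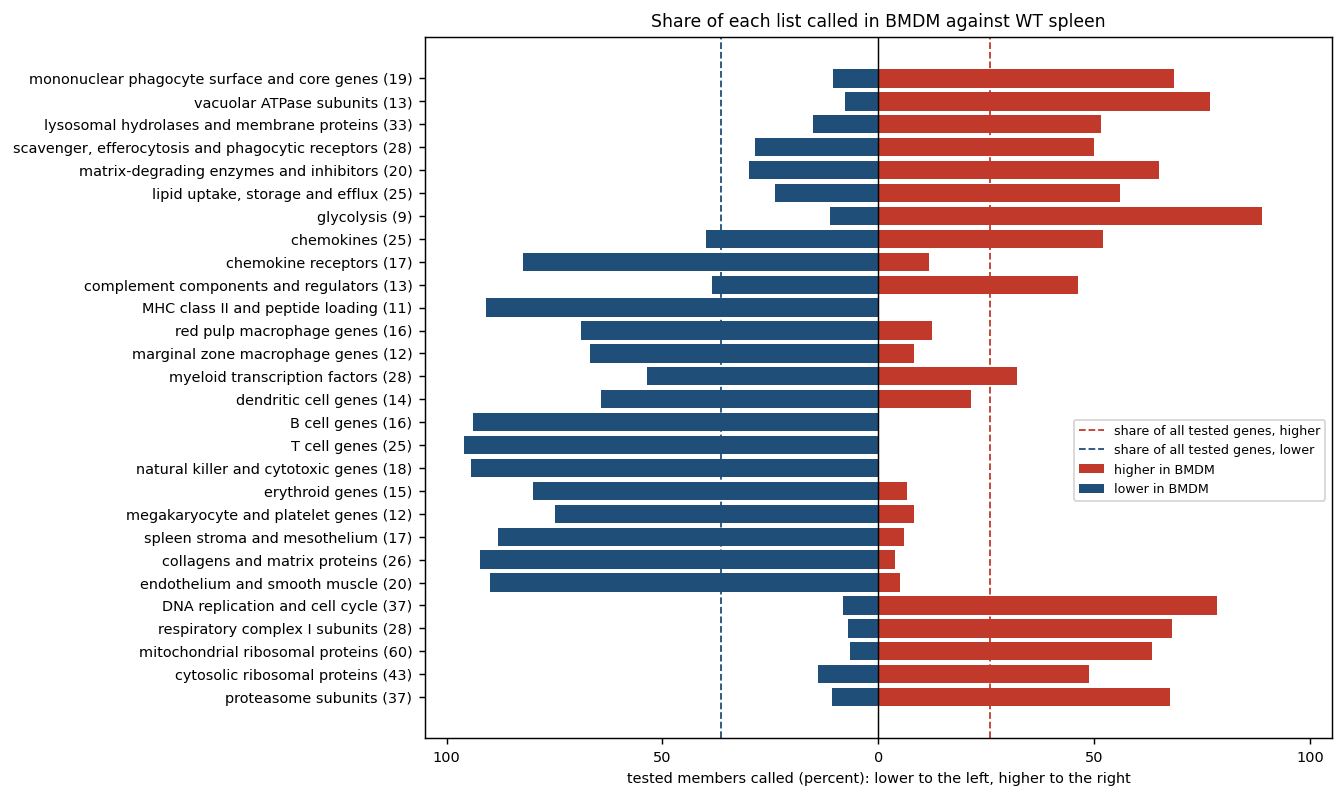
Percent of tested members of each list (rows, number tested in brackets) called higher (red, right) or lower (blue, left) in BMDM; dashed lines mark the shares over all 9082 tested genes, 25.9% and 36.4%. Lymphocyte, stromal and vascular lists were almost wholly lower, and glycolysis, cell cycle and V-ATPase lists mostly higher.

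Genes of lipid handling and sugar use were more often higher than lower in BMDM. Of 25 lipid genes 14 were higher and 6 lower. Fabp4, a fatty acid carrier, rose from 6.40 and 6.44 to 11.38 and 11.75. Apoe, the apolipoprotein that carries cholesterol out of macrophages, was higher by 2.69, Ch25h, which makes 25-hydroxycholesterol, by 4.35, and Abca1, a cholesterol exporter, at least 2.44-fold. A second exporter, Abcg1, and the sterol-sensing receptor Nr1h3 (LXRα), which drives both exporters, were lower by 1.64 and 1.61. In glycolysis 8 of 9 tested genes were higher and 1 lower (88.9% and 11.1%). Hk3, the myeloid hexokinase, was at least 19.1-fold higher, Slc16a3, the lactate exporter MCT4, was higher by 4.54, and Pkm, pyruvate kinase, by 1.93.

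Arg1 and Nos2, the enzymes that compete for arginine, were both raised. Arg1 read 7.55 and 7.62 in BMDM and 3.16 and 2.30 in spleen, at least 9.60-fold higher, and Nos2 8.45 and 7.10 against 3.95 and 3.82, at least 10.9-fold higher. Ptgs2, the inducible cyclooxygenase, was at least 31.3-fold higher and Alox5, the first enzyme of leukotriene synthesis, was higher by 4.15. Of 13 prostaglandin and leukotriene enzymes 5 were higher and 3 lower (38.5% and 23.1%). The lower ones were Hpgd, which degrades prostaglandins, at least 3.18-fold, Alox15 by 2.94 and Hpgds, which makes a D-series prostaglandin, by 0.96. Secreted proteases and their partners followed, with 13 of 20 higher and 6 lower. Mmp9, a gelatinase, rose from 5.03 and 4.72 to 10.03 and 9.58, Fn1, fibronectin, from 7.02 and 6.77 to 11.40 and 11.04, and Mmp14 was higher by 3.03. Timp3, a protease inhibitor bound to matrix, was at least 28.0-fold lower.

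Cytokines as a list did not stand out, with 10 of 37 higher (27.0%) and 16 lower (43.2%), close to the shares over all genes. Il1rn, the interleukin-1 receptor antagonist, rose from 6.81 and 6.88 to 10.74 and 10.76, Il1a was higher by 3.51, Gdf15 by 3.39 and Tnf by 1.97. Other members of the TNF family, Tnfsf10, Lta and Tnfsf11, were at least 7.20-fold, 4.11-fold and 2.12-fold lower, and Ltb was lower by 2.17. Il34, the second ligand of CSF1R, was at least 3.01-fold lower, and Il33, an alarmin of the interleukin-1 family, was lower by 3.80. Csf1 was lower by 0.72 (8.48 and 8.59 against 9.36 and 9.15), a call lost without either spleen. Interferon-stimulated genes were also near the background, with 5 of 21 higher (23.8%) and 9 lower (42.9%), from Isg15, at least 5.09-fold higher, to Rsad2, at least 6.91-fold lower.

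Genes that present antigen to T cells were lower in BMDM. Of 11 tested MHC class II and peptide loading genes 0 were higher by limma, also at an unadjusted p under 0.05, and 10 were lower (90.9%), with a median difference of -2.57. The uncalled gene was Ifi30, a reductase of endosomes. Cd74, the invariant chain, lay at 12.14 and 12.22 in spleen and 9.01 and 9.95 in BMDM. RT1-Da, the class II alpha chain of the DR type, lay at 11.93 and 11.87 against 7.79 and 8.54. RT1-DOa, a chain of the peptide-editing regulator of B cells, was below 20 on both BMDM arrays and at least 23.0-fold lower. These genes are also expressed by the B cells and dendritic cells of spleen, whose markers were lower in BMDM in the same comparison, and their part in the result was not tested. Dendritic cell genes themselves were lower in 9 of 14 cases and higher in 3 (64.3% and 21.4%, against 36.4% and 25.9% of all tested genes). Flt3, the growth factor receptor of that lineage, was at least 9.79-fold lower.

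Complement genes were called in both directions. Of 13 genes 6 were higher and 5 lower (46.2% and 38.5%, against 25.9% and 36.4% of all tested genes). The lower share was thus near that of all genes. The lower genes were the 3 chains of C1q with C1r and Cfp. C1qa, C1qb and C1qc, which form the recognition molecule of the classical pathway and are made by macrophages, lay at 10.58 and 10.83, at 10.48 and 9.57, and at 8.66 and 8.17 in spleen. In BMDM they lay at 7.34 and 6.45, at 5.60 and 4.80, and at 4.64 and 4.88. The differences were -3.81 ± 0.32, -4.82 ± 0.39 and -3.66 ± 0.24, with adjusted p of 0.000196, 0.000173 and 8.88e-05. C3ar1, the receptor for the C3a fragment, and C3 itself were higher, by 3.05 and 2.14, and Vsig4, a complement receptor of tissue macrophages, at least 3.11-fold. Vsig4 differed between the cultures, at 6.55 and 5.36.

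Most of the genes listed as marking resident macrophages of the spleen were lower in BMDM. Of 16 red pulp genes 11 were lower and 2 higher (68.8% and 12.5%), with a median of -1.55. Of 12 marginal zone genes 8 were lower and 1 higher (66.7% and 8.33%), with a median of -2.07. Over all tested genes 36.4% were lower and 25.9% higher. Vcam1, by which red pulp macrophages are recognised in mouse, read 10.09 and 9.87 in spleen and 3.63 and 3.61 in BMDM, at least 50.4-fold lower. Itgad, the CD11d integrin chain, read 9.64 and 9.45 against 3.44 and 3.37, at least 37.3-fold lower. Slc40a1, ferroportin, the only known iron exporter, read 10.17 and 9.92 against 4.63 and 4.25, a difference of -5.61 ± 0.22 (adjusted p = 2.89e-05). Vcam1 is made by stroma and endothelium as well, and the stromal and endothelial lists were lower in BMDM, so their part was not tested. Hmox1, which opens the haem ring, was instead slightly higher, by 0.61, a call lost without either spleen, and Cd5l, a secreted protein of resident macrophages, was lower by 1.48. Siglec1, a sialic acid receptor of marginal metallophils, was lower by 2.73, and Il22ra2, a soluble inhibitor of interleukin-22, at least 27.3-fold lower. On KO 1 and KO 2 Itgad lay at 8.10 and 6.01 and Slc40a1 at 9.01 and 6.73, where KO 2 is 1 of the arrays that stood apart from the other spleens.

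Transcription factors of the myeloid lineage were called in both directions, 9 of 28 higher and 15 lower (32.1% and 53.6%). Over all tested genes 25.9% were higher and 36.4% lower, so that the higher share was near that of all genes. Atf3, a stress-induced factor, rose from 4.51 and 5.05 to 9.26 and 9.40, and Egr2, a factor of macrophage maturation, was higher by 4.01. Irf8, which directs monocytes and dendritic cells and also acts in B cells, fell from 9.97 and 9.82 to 5.19 and 6.02. Runx3 was lower by 3.99 and Egr1 by 3.59. All 17 tested lymphoid factors were lower, from Bcl6 to Satb1, with a median of -3.31.

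Lymphocyte genes were almost all lower in BMDM. Of 25 T cell genes 24 were lower (96.0%), and 14 were below 20 on both BMDM arrays. Of 16 B cell genes 15 were lower (93.8%). Of 18 natural killer genes 17 were lower (94.4%), where 36.4% of all tested genes were lower. The exceptions, Il7r, Ly6d and Ncr3, were not called, and in these 3 lists 0 genes were higher by limma, also at an unadjusted p under 0.05. Cd3g read 10.45 and 11.07 in spleen against 2.75 and 2.39 in BMDM, at least 86.7-fold lower. Ms4a1, which encodes CD20, read 9.99 and 9.87 against 2.28 and 2.15, at least 48.7-fold lower. Fcmr, the IgM receptor, Jchain, which joins IgM and IgA polymers, and Satb1, a chromatin organiser of T cells, were among the 15 largest falls as well. The summed intensity of the T cell list was 9565 and 12010 in spleen and 1310 and 1360 in BMDM, and that of the B cell list 14113 and 11662 against 763 and 966. Neither list was thus wholly absent from the cultures, since 2 T cell genes and 1 to 2 B cell genes reached 200 there.

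Red cell genes were lower in 12 of 15 cases and higher in 1. Hbb-b1, a beta globin, read 10.39 and 10.27 in the spleens, which still held blood, and 3.73 and 3.39 in BMDM, at least 64.3-fold lower. Hba-a3, an alpha globin, fell by 6.32 on the log2 scale. The globin genes have near-identical copies, so that these probes may not separate them. Of 12 platelet genes 9 were lower, Pf4 was higher, and Itgb3 and Treml1 were not called. Ppbp, its neighbour among platelet chemokines, was lower by 2.90. Of 14 neutrophil genes 4 were higher and 6 lower (28.6% and 42.9%), near the 25.9% and 36.4% of all tested genes. S100a8, a calprotectin subunit, was at least 11.2-fold higher in BMDM and Camp, a granule peptide, at least 3.59-fold, whereas S100a9, the partner of S100a8, was not called. The neutrophil list summed to 1701 and 1260 in BMDM and 878 and 738 in spleen, and its part in the rises of Mmp9 and S100a8, which it contains, was not tested.

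Stroma, matrix and vessel genes were mostly lower in the cultures, where 36.4% of all tested genes were lower. Of 26 collagen and matrix genes 24 were lower and 1 higher, Col15a1, and 18 were below 20 on both BMDM arrays. Of 17 genes of spleen stroma and mesothelium 15 were lower, and the 1 higher was Pdpn, podoplanin, by 2.84. Pdpn is carried by inflammatory macrophages too, and it read 9.39 and 8.02 in the cultures. Of 20 endothelial and smooth muscle genes 18 were lower. Among the 15 largest falls, Dpt (dermatopontin), Igfbp7 and Ccn1 are secreted into matrix, Dnase1l3 is a secreted DNase, and Evl, a regulator of actin, is shared by many cells. Sparc, a collagen-binding protein, read 10.42 and 10.16 in spleen and was below 20 in both cultures, at least 62.5-fold lower.

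Most genes of DNA replication and cell division were higher in BMDM, and lists of the common cell machinery were higher to differing extents. Of 37 replication and cell cycle genes 29 were higher and 3 lower (78.4% and 8.11%), with a median of 1.37. Cdk1, the mitotic kinase, read 7.47 and 7.87 against 5.33 and 5.17, and Rrm2, a subunit of ribonucleotide reductase, 8.57 and 9.33 against 6.75 and 6.31. Pcna, the sliding clamp, was higher by 1.72, and the 3 lower genes were Cdk4, Mcm2 and Mcm7, of which all 3 calls were lost without WT 1 and that of Mcm7 without BMDM 2 or WT 2 as well. Of 37 proteasome genes 25 were higher and 4 lower. Of 28 complex I genes 19 were higher and 2 lower, of 60 mitochondrial ribosomal proteins 38 and 4, and of 43 cytosolic ribosomal proteins 21 and 6. The shares were smaller elsewhere, with 7 of 17 cytochrome oxidase and bc1 genes higher and 2 lower, 8 of 17 citric acid cycle genes and 2, and 7 of 16 tRNA synthetases and 3. Of 15 genes of cholesterol synthesis 4 were higher and 4 lower (26.7% each, against 25.9% and 36.4% of all tested genes).

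Within these machines the members disagreed by more than the spread between arrays. Atp5me, a subunit of ATP synthase, lay at 11.38 and 11.22 in BMDM and at 5.65 and 6.11 in spleen, whereas Sdha, of complex II, lay at 7.82 and 7.91 against 7.81 and 7.78 (95% interval of the difference -0.37 to 0.51). Cox6c and Rpl39 did not pass either, with differences of 0.19 (-0.27 to 0.65) and -0.04 (-0.49 to 0.42). The subunits with the largest rises were also low outside the spleen. Ndufs6 lay between 4.13 and 5.83 on the 24 brain and pituitary arrays, which had been normalized apart, Atp5me between 4.60 and 6.29, and Psma5, a proteasome subunit, between 5.11 and 7.26. Of the 124 tested genes of respiratory complexes, ATP synthase and mitochondrial ribosome 76 were higher, and 47 of these 76 lay above every brain and pituitary array on both BMDM arrays. Over all genes called higher, 1336 of 2356 did (56.7%). Probe sets of 1 gene did not always move together. Serf2 has 2, differing by 4.71 and 0.33, and Oaz2 has 3, differing by 5.35, 1.65 and -0.13. The value of Rpl39 above is that of 1 probe set. Its other probe sets differed by -0.01 to 0.79, and the mean of them all by 0.41. Of 172 tested genes with several probe sets, 24 had probe sets with opposite signs, each beyond 0.5 in size. Whether cells, culture or probes set these values was not tested.

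**Figure D4:**
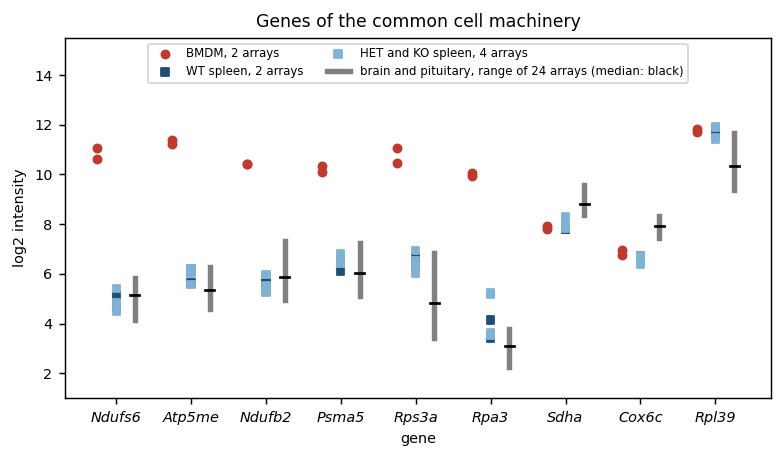
Log2 intensity (y axis) of 9 genes (x axis) on the BMDM arrays (red), the WT spleens (dark blue), the HET and KO spleens (light blue) and, as a grey range with a black median, the 24 brain and pituitary arrays, normalized apart. Ndufs6, Atp5me, Ndufb2, Psma5, Rps3a and Rpa3 are highest in BMDM among the samples drawn, while Sdha, Cox6c and Rpl39 are not.

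By a stricter reading, a gene was taken as found in 1 sample type only when it was below 20 on both arrays of 1 group and at 200 or more on both of the other. This held for 23 genes in BMDM and 79 in WT spleen, all of them called. The lower bounds on the fold had medians of 20.4 and 20.8. The rule used the same 4 arrays, so the calls and these bounds follow from it and add no support. The 23 included Ccl12, Atp6v0d2, Apoc1, Clec5a, Acod1, Tm4sf19, Ptgs2, Hk3, Abca3, Akr1b8 and Pxdn, as well as the division genes Cenpu, Cks2 and Spc24. Among them HMGB1, Ndufs6-ps1 and Rps23-ps11 belong to genes with near copies elsewhere and are uncertain. Of the 23, 12 were below 20 on all 4 HET and KO spleens, and 7 were below 20 on all 30 tissue arrays of the series, namely Abca3, Akr1b8, Atp6v0d2, Ccl12, Clec5a, Pxdn and Rrm2l1. Abca3 is a lipid transporter, Akr1b8 an aldose reductase relative and Pxdn a peroxidase of the extracellular matrix. Abca3 lay at 8.52 and 8.44 in BMDM and at 3.40 and 3.26 in WT spleen.

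The 79 genes of spleen only were led by lymphocyte and stromal genes, among them Cd3g, Ms4a1, Cxcl13, Cd22, Blk, Pou2af1, Nkg7, Sparc, Stab2 and Plvap. They kept 200 or more in 75 cases on HET 1, 64 on KO 1, 32 on HET 2 and 30 on KO 2. The second spleen of each mutant genotype thus departed from the first in these genes whatever its genotype.

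**Figure D5:**
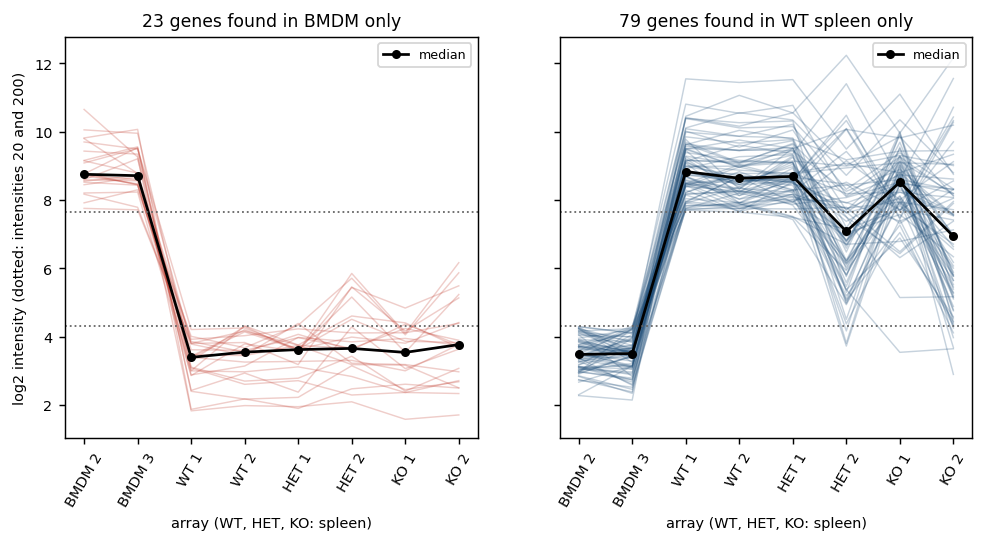
Log2 intensity (y axis) of the 23 genes found in BMDM only (left) and the 79 found in WT spleen only (right) on 8 arrays (x axis); each thin line joins the values of 1 gene across arrays, which have no order, the black line is the median, and dotted lines mark intensities 20 and 200. By the rule the 23 lie below 20 on the WT spleens and the 79 lie below 20 in BMDM. The median of the 79 also drops on HET 2 and KO 2.

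The 2 cultures were close for most genes. Of 2567 genes at 200 or more on at least 1 BMDM array, 4 differed by 1.5 or more between the arrays, a limit chosen after the values were seen. Cxcl2 read 8.51 on BMDM 2 and 6.68 on BMDM 3, and Cxcl1, also a neutrophil chemokine, read 8.99 and 7.37. Lage3 was higher on BMDM 2 as well (8.33 and 6.77), and Rps6 was higher on BMDM 3 (8.76 and 6.81). Cxcl2 and Cxcl1 lay above both spleens on both BMDM arrays, as did Lage3 and Rps6. Below that limit, some rises named above were also larger on BMDM 2. Ccl12, Nos2, Il1a and Ptgs2 were higher there by 1.39, 1.35, 1.15 and 1.02. Other named genes went the other way, such as Cd74, higher on BMDM 3 by 0.95. Whether such genes vary together between cultures was not tested.

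The tested genes included 6 of microRNAs, of which 3 were higher in BMDM and 0 lower by limma. Over all tested genes 25.9% were higher and 36.4% lower. Mir221, a microRNA locus studied in dividing cells, read 6.11 and 6.56 in BMDM and 2.06 and 2.27 in spleen, at least 4.04-fold higher (adjusted p = 5.69e-05). It was singled out after its values were seen. Its probes report the locus transcript and not the mature forms, which are shown for identity (RefSeq, GRCr8, chrX, + strand) with the seed, bases 2 to 8, in capitals.
rno-miR-221-5p: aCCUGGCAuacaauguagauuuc
rno-miR-221-3p: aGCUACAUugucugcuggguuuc
Mir223, of the myeloid lineage, differed between the cultures (6.92 and 4.48) and was not called against spleen (4.95 and 4.34).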

How the data were processed

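Total RNA had been labelled and hybridised to Affymetrix Rat Gene 2.1 ST arrays. The authors normalized the arrays by RMA in R and deposited 1 linear intensity per probe set (36685 probe sets, 32 arrays). Exact values shared between arrays showed that the 8 spleen and BMDM arrays were normalized together, apart from the 24 brain and pituitary arrays. RMA equalises the distribution of all arrays, so a change shared by most genes cannot be seen. The files give no detection p-value. An intensity of 20 was therefore set as a floor, and median intensities were 16.8 to 19.9. The number of arrays, 2 per group, limits the precision.

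Intensities were log2 transformed here. Of the probe sets, 14824 had 1 gene symbol, 829 several and 21032 none, and only the first were used. The probe set with the highest mean over the 4 arrays stood for a gene, and genes at 20 or more on at least 1 of the 4 arrays were tested with limma 3.58.1 (lmFit and eBayes, R 4.3.3), adjusted by Benjamini-Hochberg over all 9082. For a gene below 20 on both arrays of 1 group, the fold is a bound, the mean of the brighter group over 20. No level was set against that of another probe set. Named genes were the 15 largest changes each way among called genes with both arrays of the higher group at 200 or more, the 4 markers, and examples from the lists. Members and lists were chosen with earlier results of these data known. The labels call the arrays biological replicates. Names, spans, promoters and microRNAs came from RefSeq on GRCr8. The script was tested on simulated data.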

Additional observations from a re-analysis of the deposited data

Results flagged for a closer look

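The brain and pituitary arrays, which took no part in the tests, carried signal for some genes found in 1 sample type only. Ptgs2, below 20 on both WT spleens, lay at 200 or more on 5 of the 24 brain and pituitary arrays. Of the 79 genes found in WT spleen and not in BMDM, 35 lay at 200 or more on at least 1 of those arrays, so that these 35 were not confined to the spleen within the series.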

How the results depend on the processing

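No paired analysis was possible because the marrow came from male DA rats and the spleens from female DA/SD rats. The counts of 2356 higher and 3307 lower genes stayed within 1.5 times under other filters, probe set rules, centring, variance models and added spleens. The methods' t-test with Benjamini-Hochberg adjustment called 1052 and 1254 genes. Leaving out 1 array gave 1569 to 2405 higher and 2242 to 3438 lower calls, with 1569 without WT 1 and 1570 without WT 2, where 1 spleen stands alone and is assumed to vary like the cultures. Genes found in 1 type only rose to 97 in BMDM and 173 in spleen with the floor at 50, and to 54 and 171 with the upper limit at 100. They were 25 to 33 and 88 to 100 with 1 array left out, since fewer arrays then had to pass. The median difference of -0.20 moved to -0.03 with arrays centred on their median and to -0.05 after quantile normalization.

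Of 199 genes named above, Ccr2, Cd36, Itgb3, Mir223, Rpl39 and S100a9, all uncalled, changed sign under at least 1 of the 14 alternatives, and no called gene did. Of 2778 values, 2636 kept their side of the threshold, 130 no longer passed and 12 passed anew. The t-test lost 44 of the genes. Besides the genes named above as lost without a spleen, Bcl6, Ccl20, Ctsf, Cxcl16, Itgav and Rps6 were lost without either, Hpgds without WT 1 or BMDM 2, Ccl22 and Galc without WT 2, and Ctsk without WT 2, BMDM 2 or BMDM 3. The uncalled Marco and S100a9 passed without BMDM 2, and Lage3, Ly6d and Mir223 without BMDM 3. Toll-like receptor genes, 8 higher and 6 lower, became 8 and 9 without BMDM 3, and neutrophil genes became 3 and 2 with the KO spleens added. The causes were not tested.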
